A study of Mus musculus with 9 samples.

Results

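The Notch receptors, their ligands and the Hes and Hey target genes were followed in 4T1 mouse mammary tumour cells with and without a knockout of Nat10. The members were taken by gene name: Notch1, Notch2, Notch3, Notch4, Jag1, Jag2, Dll1, Hes1, Hey1 and Heyl. The deposited table of 22469 genes held 9 of these 10 names, and Heyl was not analysed here. The groups were KO-c19 and KO-c43, which are 2 lines of 4T1 cells with Nat10 knocked out, and WT, the 4T1 cells with intact Nat10. All cells were untreated and were grown in the same medium, seeded at 300000 per 6 cm dish and lysed after 48 h, with 3 biological replicates per group. The series is titled for a role of NAT10 in metastasis. How the knockout lines were made, and whether each came from 1 clone, is not given in the sources used here, so a property of a line and an effect of losing Nat10 cannot be told apart. The p-values below measure the spread between cultures of a line and not between independently edited lines.

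Notch receptors are membrane proteins that are cut when a Jagged or Delta-like ligand on a neighbouring cell pulls on them. The freed intracellular part enters the nucleus, joins the DNA-binding protein RBPJ and a Mastermind coactivator that recruits histone acetyltransferases. Hes and Hey genes, which encode repressors of the bHLH family, are the best known targets. In the mammary gland Notch signalling takes part in the choice between luminal and basal cell fates, and mouse Notch4 was found as an integration site of a mammary tumour virus.

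Values are normalized read counts per gene as deposited, with normalized totals of 45628576 to 50123222 per library and 1 read worth 0.822 to 1.11 normalized counts. Nat10 itself had 1748, 1761 and 1710 normalized counts in KO-c19 and 1724, 1748 and 1766 in KO-c43, against 6432, 6501 and 6428 in WT. Changes are differences of mean log2(normalized count + 1) with the standard error (SE) from limma, and p-values are two-sided and adjusted with Benjamini-Hochberg over all 17579 genes tested. A gene was called when its adjusted p was under 0.05. Folds on this scale understate the change of low genes. The keratins Krt8 and Krt18, markers of luminal epithelium, had mean normalized counts of 31153 and 36345 for KO-c19, 28918 and 33656 for KO-c43, against 25607 and 29843 for WT. The epithelial adhesion gene Epcam averaged 963 in KO-c19 and 123 in KO-c43, against 6422 in WT. Of 7 epithelial markers 6 were measured, and in each line 2 of them (Krt8 and Krt18) rose and 4 fell. Of all tested genes, 67.6% were called in KO-c19 and 65.6% in KO-c43, in either direction. The keratin gene Krt14 averaged 22.2 in KO-c19 and 15.1 in KO-c43, against 4960 in WT. Cdh1 averaged 5797 in KO-c19 and 3730.5 in KO-c43, against 26262 in WT. Krt19 averaged 2924 in KO-c19 and 2096 in KO-c43, against 5012 in WT. The part of these markers in the results below was not tested.

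Of the 9 members, 5 rose and 3 fell in KO-c19, where 32.8% of all tested genes rose and 34.9% fell. In KO-c43 4 rose and 3 fell, with 32.5% and 33.1% of all tested genes. In all, 8 members were called in KO-c19 and 7 in KO-c43, beside 67.6% and 65.6% of tested genes. Notch1, Notch3, Dll1 and Hey1 were called in opposite directions in the 2 lines, 4 of 9 members, while 2.96% of all tested genes were. The Hey1 call in KO-c43 ended in 7 of 18 alternative settings, and Notch3 had only 1 or 2 reads in each KO-c43 library. The members were chosen with earlier results of these data known. Jag1 fell in both lines, and Jag2 and Notch2 rose in both; of all tested genes, 27% fell in both and 25.4% rose in both. Between the lines, 3 members were higher and 4 lower in KO-c43 than in KO-c19, where 21.1% and 18.3% of tested genes were (3717 and 3211 genes; 2956 and 4309 when each library was divided by its total). In all 3 comparisons 7 members were called, beside 24.7% of tested genes. The libraries of 8 members did not overlap between KO-c19 and WT, and those of all 9 did not overlap between KO-c43 and WT, beside 70.3% and 70.6% of tested genes. Between KO-c43 and KO-c19 they did not overlap for 8 members, beside 47.9% of tested genes. Where a change of at least 2-fold was asked for as well, 1 member (Notch3) rose and 3 (Jag1, Dll1 and Hey1) fell in KO-c19, beside 9.06% and 6.41% of tested genes. For KO-c43 1 member (Jag2) rose and 2 (Notch3 and Jag1) fell, beside 8.28% and 6.18%. With the same fold, no member rose and 1 (Jag1) fell in both lines, beside 5.89% and 4.14%, and 3 members were higher and 2 lower in KO-c43 than in KO-c19, beside 2.55% and 3.45%. Both comparisons with WT use the same WT libraries. Notch3 is in these counts, although it was high enough to be tested only through its KO-c19 libraries. Its calls in KO-c19 and between the lines are therefore not independent of the filter on low values.

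**Figure D1:**
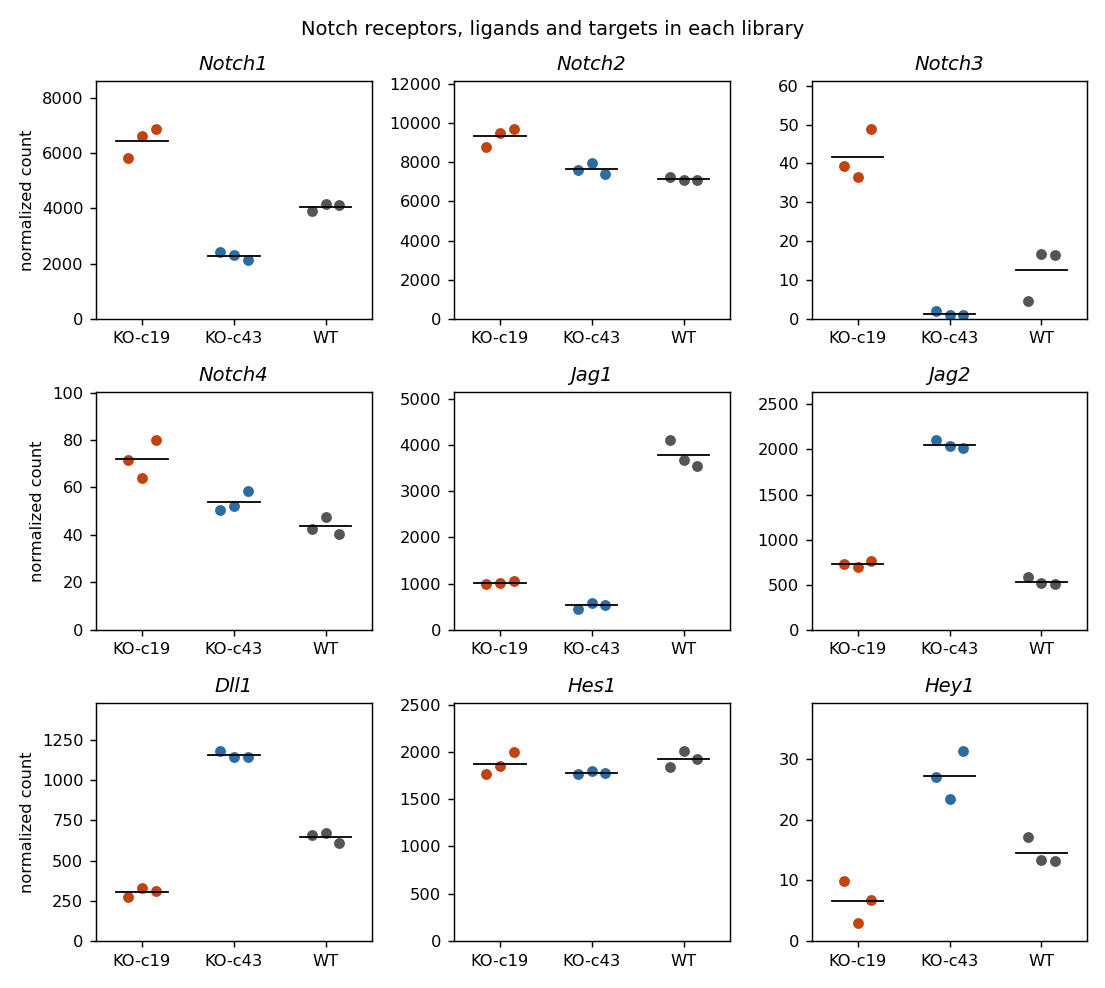
Normalized counts of the 9 members in each library, on a linear axis from 0 for each gene, with 3 points per group (KO-c19, KO-c43, WT) and a bar at the mean. Jag1 was low in both knockout lines, Jag2 and Dll1 were highest in KO-c43, Notch1 and Notch3 were highest in KO-c19 and lowest in KO-c43, and Hes1 lay at a similar height in all 3 groups.

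All 3 ligand genes were called in each comparison. Jag1 (ENSMUSG00000027276, chromosome 2 at 136923376 to 136958564 on the minus strand) encodes the transmembrane ligand Jagged1. Coordinates of genes are those of the deposited table, which names no build and does not use GRCm38 positions. Jag1 had 1001, 1019 and 1047 normalized counts in the KO-c19 libraries and 457, 589 and 547 in the KO-c43 libraries, against 4114, 3682 and 3555 in the WT libraries. The 3 groups did not overlap. The change was −1.88 ± 0.079 (SE, log2) in KO-c19 and −2.84 ± 0.079 in KO-c43 (limma adjusted p = 1.33e-11 and 1.19e-13), which is 3.69-fold and 7.14-fold lower. Of all tested genes, 2.95% had a lower difference than Jag1 in KO-c19 and 1.88% in KO-c43. KO-c43 was also 1.93-fold below KO-c19 (−0.95 ± 0.079, limma adjusted p = 1.39e-07).

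Jag2 (ENSMUSG00000002799, chromosome 12 at 112871439 to 112893396, minus strand), for the related ligand Jagged2, went the other way. Its normalized counts were 727, 697 and 763 in KO-c19 and 2109, 2037 and 2019 in KO-c43, against 584, 518 and 503 in WT. The KO-c19 libraries lay just above the WT libraries, and the KO-c43 libraries lay far above both. The rise was 0.45 ± 0.060 in KO-c19 and 1.94 ± 0.060 in KO-c43 (limma adjusted p = 3.18e-06 and 7.94e-15), and KO-c43 exceeded KO-c19 by 1.49 ± 0.060 (limma adjusted p = 1.38e-12). Jag1 and Jag2 belong to the same ligand class, and Jag2 exceeded Jag1 per kilobase of exon in KO-c43 while Jag1 exceeded Jag2 in WT.

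Dll1 (ENSMUSG00000014773, chromosome 17 at 15587616 to 15597134, minus strand) encodes Delta-like 1, a ligand of the other class. It had 270, 328 and 311 normalized counts in KO-c19 and 1182, 1141 and 1145 in KO-c43, against 660, 674 and 611 in WT. The WT libraries fell between the lines without overlap. Dll1 fell by 1.10 ± 0.071 (log2) in KO-c19 and rose by 0.83 ± 0.071 in KO-c43 (limma adjusted p = 2.05e-10 and 9.22e-09). Between the lines it was 3.82-fold higher in KO-c43 than in KO-c19 (1.93 ± 0.071, limma adjusted p = 4.23e-13), a difference above that of 99.0% of tested genes.

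The windows around the starts of these 3 ligand genes are shown because all 3 were called in each comparison; they run from 250 bases upstream to 50 bases downstream of a transcription start in RefSeq (GRCm38.p6), 5′ to 3′ on the gene's strand, all on the minus strand. Dll1 has 2 annotated starts. Capitals mark CACGCG or its reverse complement CGCGTG, a site that Hes and Hey repressors can bind.
Jag1, chr2:137116471-137116770: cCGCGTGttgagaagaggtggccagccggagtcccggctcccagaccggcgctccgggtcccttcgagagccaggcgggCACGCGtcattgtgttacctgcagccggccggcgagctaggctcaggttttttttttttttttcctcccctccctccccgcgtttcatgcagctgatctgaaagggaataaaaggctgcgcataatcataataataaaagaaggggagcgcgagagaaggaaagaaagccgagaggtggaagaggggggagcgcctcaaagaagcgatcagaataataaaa
Jag2, chr12:112929446-112929745: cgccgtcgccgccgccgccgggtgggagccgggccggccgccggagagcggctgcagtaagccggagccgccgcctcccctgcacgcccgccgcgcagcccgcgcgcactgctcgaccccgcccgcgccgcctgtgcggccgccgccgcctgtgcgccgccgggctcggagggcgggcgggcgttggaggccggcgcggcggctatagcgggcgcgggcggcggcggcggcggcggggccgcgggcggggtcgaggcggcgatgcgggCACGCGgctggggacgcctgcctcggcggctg
Dll1, chr17:15375774-15376073: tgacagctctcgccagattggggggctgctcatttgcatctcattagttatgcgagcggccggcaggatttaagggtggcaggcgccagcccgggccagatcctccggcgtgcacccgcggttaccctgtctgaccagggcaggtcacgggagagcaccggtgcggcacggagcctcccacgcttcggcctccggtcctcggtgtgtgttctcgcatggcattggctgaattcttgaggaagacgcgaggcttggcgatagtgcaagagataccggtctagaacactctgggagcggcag
Dll1, chr17:15376883-15377182: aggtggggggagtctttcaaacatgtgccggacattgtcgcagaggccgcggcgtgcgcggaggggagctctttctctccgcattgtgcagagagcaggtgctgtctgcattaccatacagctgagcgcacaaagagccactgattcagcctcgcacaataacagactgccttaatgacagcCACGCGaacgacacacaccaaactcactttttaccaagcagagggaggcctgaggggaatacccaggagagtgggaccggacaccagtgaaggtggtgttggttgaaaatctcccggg
CACGCG was found at 2 places in the Jag1 window and once each in the Jag2 window and the second Dll1 window, as well as in the Notch2 window, and 9.27% of the 32851 RefSeq windows of 300 bases held it on either strand. The GC content of these windows ran from 55.7% in Jag1 to 86.0% in Jag2, against a median of 52.7% over all windows. The RBPJ core TGGGAA (reverse complement TTCCCA) was in 25.6% of all windows, and the E-box CACGTG in 7.15%; neither was in a window of the 7 members matched, which were the 4 receptors and the 3 ligands. A match is a string of letters and not a shown binding site. No window was given for Hes1, Hey1 and Heyl.

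A further ligand gene outside the member list was called in both lines. Dll4, for Delta-like 4, a ligand best known from growing blood vessels, had 2828, 3308 and 3329 normalized counts in KO-c19 and 2868, 2767 and 2823 in KO-c43, against 724, 782 and 750 in WT. The rise was 4.18-fold in KO-c19 (2.06 ± 0.056, limma adjusted p = 1.45e-15) and 3.75-fold in KO-c43 (1.91 ± 0.056, limma adjusted p = 4.43e-15). Dll3 had at most 3.33 normalized counts in a library and was not tested. Of the distant relatives, Dlk2 was lower in KO-c19 by −0.61 ± 0.076 with limma adjusted p = 1.69e-06. Its KO-c43 difference was 0.15 ± 0.076 and did not pass, with limma adjusted p = 0.0964. Dner had at most 5.57 normalized counts in a library and was not tested.

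To compare genes with each other, normalized counts were divided by the exonic length of the gene. The 4 ligand genes together came to 1171 ± 84.0 normalized counts per kilobase of exon in KO-c19 (SD, n = 3) and 1392 ± 12.2 in KO-c43, against 1075 ± 56.4 in WT. The sums of KO-c19 and WT overlapped, from 1074 to 1227 and from 1022 to 1134, while every KO-c43 sum, from 1383 upward, was above both. The makeup of that sum differed far more than its size. Jag1 made up 15.02% ± 0.84 of it in KO-c19 and 6.55% ± 0.89 in KO-c43, against 60.4% ± 1.67 in WT. Dll4 made up 69.9% ± 1.36 in KO-c19 and 52.6% ± 0.54 in KO-c43, against 18.2% ± 1.42 in WT. Jag2 and Dll1 made up 8.97% ± 0.73 and 6.13% ± 0.25 for KO-c19 and 21.2% ± 0.33 and 19.7% ± 0.21 for KO-c43, against 7.14% ± 0.22 and 14.3% ± 0.59 in WT. The leading ligand transcript was therefore Dll4 in every knockout library and Jag1 in every WT library. These shares are descriptions and were not tested.

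**Figure D2:**
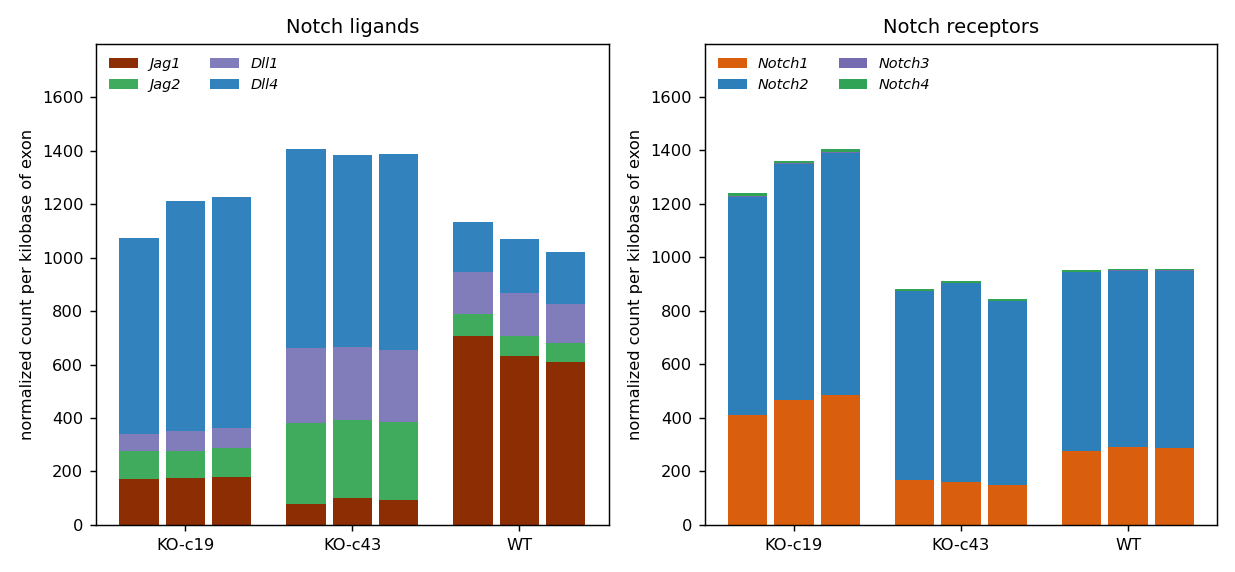
Level per kilobase of exon of the ligand genes (left) and receptor genes (right), stacked, with 1 bar per library and 3 bars each for KO-c19, KO-c43 and WT. Dll4 forms the largest part of the ligand bars in both knockout lines and Jag1 in WT; Notch2 forms the largest part of the receptor bars in all libraries.

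Among the receptors, Notch1 and Notch2 carried nearly all of the signal. Notch1 (ENSMUSG00000026923, chromosome 2 at 26347915 to 26406675, minus strand) had 5838, 6617 and 6902 normalized counts in KO-c19 and 2409, 2308 and 2126 in KO-c43, against 3906, 4154 and 4109 in WT. The 3 groups did not overlap, and WT again lay between the lines. Notch1 rose by 0.67 ± 0.058 (log2) in KO-c19 and fell by 0.83 ± 0.058 in KO-c43 (limma adjusted p = 3.52e-08 and 2.35e-09), and KO-c43 was 2.82-fold below KO-c19 (−1.50 ± 0.058, limma adjusted p = 6.41e-12). The antisense gene 0610009E02Rik overlaps it and averaged 20.5 normalized counts in KO-c19, 11.8 in KO-c43 and 7.67 in WT. Whether strands were kept apart in counting is not given in the labels.

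Notch2 (ENSMUSG00000027878, chromosome 3 at 97920843 to 98057677, plus strand) was the most abundant receptor transcript per kilobase of exon and had the smallest differences from WT among the receptors. It had 8787, 9531 and 9734 normalized counts in KO-c19 and 7591, 7996 and 7392 in KO-c43, against 7236, 7087 and 7125 in WT. The libraries of the groups did not overlap, although the lowest KO-c43 value lay close to the highest WT value. The KO-c19 rise was 0.39 ± 0.042 with limma adjusted p = 2.35e-07. For KO-c43 it was 0.10 ± 0.042 with a limma adjusted p of 0.048, and that call ended without WT replicate 1, 2 or 3 or KO-c43 replicate 1 or 2 (limma adjusted p between 0.0673 and 0.226), without a filter on low values (0.0544), under TMM scaling (0.0511), without the trend and robust settings (0.122) and with the replicate number as a block (0.0553). Against KO-c19, KO-c43 differed by −0.29 ± 0.042 (limma adjusted p = 2.43e-05). Within Notch2 lie the features Gm42819 and Gm42820 on the same strand, which averaged 161 and 123 normalized counts for KO-c19 and 126 and 102 for KO-c43, against 161 and 103 for WT.

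Notch3 (ENSMUSG00000038146, chromosome 17 at 32339794 to 32385826, minus strand) was a rare transcript whose groups stood far apart. It had 39.4, 36.5 and 49.0 normalized counts in KO-c19 and 1.94, 0.90 and 1.05 in KO-c43, against 4.51, 16.6 and 16.4 in WT. Written as reads, that is 48, 36 and 44 in KO-c19 and 2, 1 and 1 in KO-c43, against 5, 15 and 15 in WT. Notch3 rose by 1.83 ± 0.433 (log2) in KO-c19 and fell by 2.40 ± 0.433 in KO-c43 (limma adjusted p = 9.04e-05 for KO-c43). The gene passed the filter on low values only with the KO-c19 libraries, as WT and KO-c43 did not meet it without them. Its rise in KO-c19 and its difference between the lines are therefore not independent of that filter, and no p-value is given for them. The size in KO-c43 depends on the constant added before the logarithm (−1.39 with 5 and −2.70 with 0.5). On summed reads KO-c43 stood at 0.108 of WT, with an exact 95% Clopper-Pearson interval of 0.0278 to 0.302 that covers counting error only. Without WT replicate 1, the lowest WT library, the change was 1.27 in KO-c19 and −2.96 in KO-c43 (limma adjusted p = 2.51e-06 for KO-c43).

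Notch4 (ENSMUSG00000015468, chromosome 17 at 34783242 to 34807477, plus strand) was also rare. It had 71.5, 63.8 and 80.2 normalized counts in KO-c19 and 50.3, 52.3 and 58.6 in KO-c43, against 42.4, 47.7 and 40.5 in WT. The groups did not overlap, with KO-c19 highest. Its rise of 0.71 ± 0.163 passed for KO-c19 (limma adjusted p = 0.000923). For KO-c43 the difference of 0.30 ± 0.163 did not pass (limma adjusted p = 0.118, 95% interval −0.04 to 0.64), nor did the difference between the lines of −0.41 ± 0.163 (limma adjusted p = 0.0561).

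Per kilobase of exon, the 4 receptors together came to 1335 ± 85.6 normalized counts in KO-c19 (SD, n = 3) and 877.5 ± 34.1 in KO-c43, against 955 ± 3.17 in WT, with no overlap between the groups. Notch1 made up 33.9% ± 0.74 of this sum in KO-c19 and 18.3% ± 0.85 in KO-c43, against 29.8% ± 0.88 in WT, and Notch2 made up 65.0% ± 0.74 in KO-c19, 81.0% ± 0.81 in KO-c43 and 69.4% ± 0.98 in WT. Notch3 and Notch4 were minor parts, with mean shares of 0.385% and 0.669% for KO-c19 and 0.018% and 0.762% for KO-c43, against 0.162% and 0.566% for WT.

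Notch4 and Dll4 are genes of blood vessels and Notch3 of the mural cells around them, so markers of those cells were read too. Of 6 endothelial markers, Pecam1 and Tie1 were measured, with a summed level of 9.86 to 21.3 normalized counts in KO-c19 and 2.09 to 4.52 in KO-c43, against 5.55 to 13.1 in WT. Of 8 mural markers 5 were measured, with sums of 185 to 220 in KO-c19 and 223 to 278 in KO-c43, against 604 to 677 in WT, of which most was Mcam. The other 4 mural markers were low and differed in direction. Cspg4 averaged 31.3 normalized counts in KO-c19 and 8.81 in KO-c43, against 33.0 in WT, so that it was lowest in KO-c43, as Notch3 was. Rgs5 averaged 0.89 in KO-c19 and 19.5 in KO-c43, against 1.71 in WT, and Acta2 averaged 7.62 in KO-c19 and 6.11 in KO-c43, against 15.2 in WT. Pdgfrb had 0 in each KO-c19 library and averaged 4.57 in KO-c43, against 2.37 in WT.

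Of 6 immune markers 3 were measured, with sums of 261 to 327 in KO-c19 and 181 to 238 in KO-c43, against 458 to 487 in WT. These members went apart. Csf1r averaged 14.96 in KO-c19 and 12.6 in KO-c43, against 293 in WT, while Cd68 averaged 280 in KO-c19 and 192 in KO-c43, against 182 in WT, and Ptprc 9.09 in KO-c19 and 0.95 in KO-c43, against 1.04 in WT. Of 6 fibroblast markers 3 were measured, with sums of 838 to 904 in KO-c19 and 406 to 504 in KO-c43, against 312 to 325 in WT. Nearly all of that sum was Pdgfra, with means of 866 in KO-c19 and 450 in KO-c43, against 273 in WT. The collagen genes went the other way, as Col1a1 averaged 2.72 in KO-c19 and 6.53 in KO-c43, against 28.5 in WT, and Col1a2 had 0 in each KO-c19 library and averaged 1.92 in KO-c43, against 15.6 in WT. The part of such markers in the Notch results was not tested. Every library came from plated cultures of the mammary tumour cell line, so these markers do not give numbers of other cell kinds. In such bulk cultures, fewer cells that express a gene and less of its RNA per cell cannot be told apart.

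**Figure D3:**
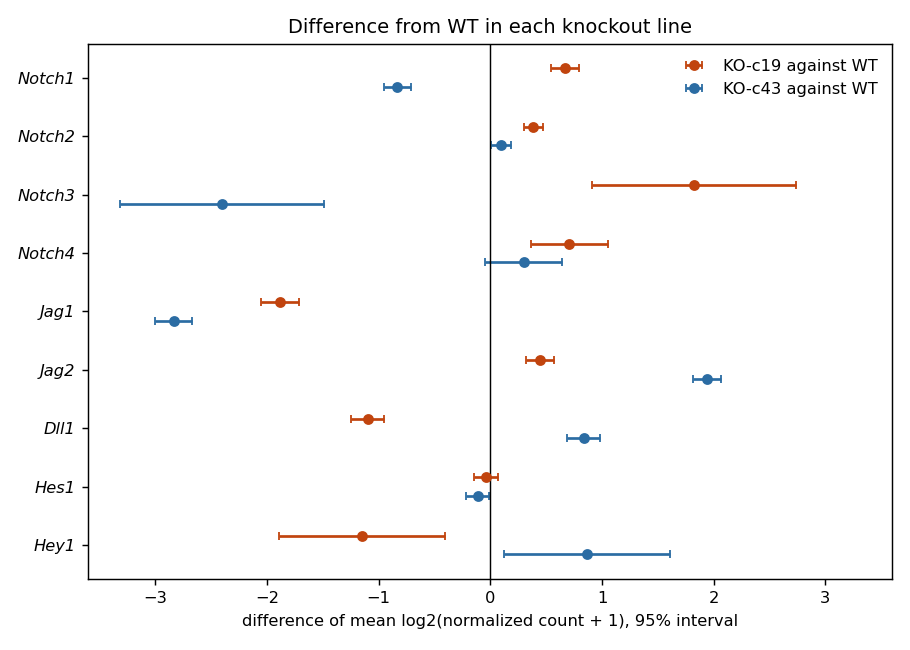
Difference of mean log2(normalized count + 1) from WT for each member, KO-c19 in rust red and KO-c43 in blue, with 95% intervals from limma. The intervals of Notch1, Notch3, Dll1 and Hey1 lie on opposite sides of 0 in the 2 lines, those of Jag1 lie below 0 and those of Jag2 above 0 in both, and those of Hes1 lie close to 0.

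The 2 target genes differed from each other. Hes1 (ENSMUSG00000022528, chromosome 16 at 29883202 to 29886614, plus strand) encodes the bHLH repressor through which Notch holds back differentiation in many tissues. It had 1767, 1853 and 2000 normalized counts in KO-c19 and 1761, 1794 and 1781 in KO-c43, against 1842, 2011 and 1923 in WT. KO-c19 and WT overlapped, and the KO-c43 libraries lay just below all WT libraries. The difference was −0.04 ± 0.050 in KO-c19 (limma adjusted p = 0.489, 95% interval −0.14 to 0.06) and −0.11 ± 0.050 in KO-c43 (limma adjusted p = 0.0538, 95% interval −0.22 to −0.0086, before adjustment). The KO-c43 value passed without WT replicate 1 (limma adjusted p = 0.0293), without KO-c19 replicate 1 or 3 (0.0212 and 0.0384), with only the groups compared (0.0207), with a filter of at least 50 (0.0479), under TMM scaling (0.0446) and with the replicate block (0.0468).

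Hey1 (ENSMUSG00000040289, chromosome 3 at 8728419 to 8732316, minus strand), for a repressor that acts downstream of Notch in vessels and heart, was barely transcribed. It had 9.86, 3.04 and 6.68 normalized counts in KO-c19 and 27.1, 23.5 and 31.4 in KO-c43, against 17.1, 13.3 and 13.1 in WT. These are 12, 3 and 6 reads in KO-c19 and 28, 26 and 30 in KO-c43, against 19, 12 and 12 in WT. Hey1 fell by 1.15 ± 0.352 (log2) in KO-c19 and rose by 0.87 ± 0.352 in KO-c43 (limma adjusted p = 0.00794 and 0.0386), and KO-c43 was above KO-c19 by 2.02 ± 0.352 (limma adjusted p = 0.000156). Its order of groups, with KO-c43 above WT and WT above KO-c19, was that of Dll1 and the reverse of that of Notch1 and Notch3. The change in KO-c19 was −0.76 without KO-c19 replicate 2 (limma adjusted p = 0.04996). The call in KO-c43 ended without WT replicate 2 or 3 or any KO-c43 replicate (limma adjusted p between 0.0515 and 0.118), under quantile scaling (0.0503) and without the trend and robust settings (0.0521).

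Hey2, the close paralogue of Hey1, was outside the member list and was nearly without reads in both lines. KO-c19 libraries had 0, 1.01 and 1.11 normalized counts and every KO-c43 library had 0, against 111, 99.9 and 93.1 in WT. It passed the filter on low values through the WT libraries alone, so its fall is not independent of that filter and no p-value is given. Hes6, for a Hes relative that opposes Hes1, was higher by 0.18 ± 0.078 for KO-c19 and by 0.47 ± 0.078 for KO-c43, with limma adjusted p = 0.0472 and 3.78e-05. Hes7, of the segmentation clock, had 6.28 to 19.3 normalized counts over all libraries and was not called in any comparison. Hes2, Hes3, Hes5 and Helt were not analysed here.

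Other direct targets of Notch moved in both directions. Nrarp, which Notch induces and whose protein dampens the pathway, had 5142, 5674 and 5472 normalized counts in KO-c19 and 5944, 5894 and 5718 in KO-c43, against 2218, 2316 and 2386 in WT. KO-c19 exceeded WT by 1.23 ± 0.043 (2.35-fold, limma adjusted p = 3.73e-14) and KO-c43 by 1.34 ± 0.043 (2.54-fold, limma adjusted p = 1.16e-14), with both lines clear of WT. For each gene the KO-c19 fold is given before the KO-c43 fold. Cdkn1a, for the cell cycle inhibitor p21, rose 3.55-fold and 1.88-fold, and Ccnd1, for cyclin D1, rose 1.23-fold and 1.44-fold. Myc, for a growth-promoting transcription factor, fell 1.58-fold and 2.09-fold. These genes answer to many other signals. Nrarp rose in both lines, while Hes1 was not called in either.

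The remaining machinery of the pathway was read by step, on lists written from textbook knowledge with earlier results of these data known. Up to 3 genes of each list were named for the smallest adjusted p against WT, so they do not represent their list. The lists stand beside all tested genes, with median differences of 0.0032 in KO-c19 and 0.0070 in KO-c43. Dividing each library by its total in place of the deposited scaling would raise those medians to 0.10 and 0.052, so small list medians depend on the scaling. The counts of each list stand beside 32.8% of all tested genes that rose and 34.9% that fell in KO-c19 (67.6% called), and 32.5% that rose and 33.1% that fell in KO-c43 (65.6% called). Of 9 nuclear activators, KO-c19 had 7 that rose and 1 that fell (median 0.39) and KO-c43 had 6 that rose and 1 that fell (median 0.35). Maml3, a Mastermind coactivator gene, rose 3.30-fold and 1.99-fold, and Maml1 rose 1.53-fold and 1.45-fold. Rbpj, for the DNA-binding partner of every Notch receptor, rose 1.31-fold and 1.34-fold (limma adjusted p = 1.69e-08 and 5.75e-09). Among 15 nuclear corepressor genes, KO-c19 had 8 that rose and 4 that fell (median 0.18) and KO-c43 had 9 that rose and 3 that fell (median 0.23). Within the Groucho family of corepressors, which Hes proteins recruit, Tle2 rose 6.25-fold and 6.13-fold, Tle3 rose 1.72-fold and 1.58-fold, and Tle4 fell 2.82-fold and 2.42-fold.

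For the 8 genes that mark or pull ligands for endocytosis, KO-c19 had 6 that rose and 2 that fell (median 0.40) and KO-c43 had 5 that rose and 2 that fell (median 0.21), beside 67.6% and 65.6% of all tested genes called in either direction. The ubiquitin ligase genes of the Neuralized family went apart, as Neurl1b rose 3.82-fold and 2.27-fold and Neurl1a fell 7.12-fold and 4.18-fold. Among the epsins, endocytic adaptors, Epn2 rose 1.73-fold and 1.77-fold. Epn3, chosen after its values were seen, rose 1.21-fold in KO-c19 and fell 7.21-fold in KO-c43 (limma adjusted p = 0.00119 and 1.52e-16). Of 5 tested genes that glycosylate receptors, 2 rose and 2 fell in each line, with medians of −0.05 and −0.16. Lfng, for Lunatic fringe, whose sugar favours Delta-like over Jagged ligands, rose 1.36-fold and 1.70-fold (limma adjusted p = 2.9e-05 and 3.1e-08). Pofut1, for the enzyme that adds the fucose which fringe extends, rose by 0.37 and 0.27 on the log2 scale, and Poglut1, for a glucosyltransferase, fell by 0.16 and 0.26.

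Of 9 tested genes for receptor cleavage, 4 rose and 2 fell in each line, with medians of 0.071 and 0.082, a share called near the 67.6% and 65.6% of all tested genes. Adam10, for the protease that cuts a ligand-bound receptor outside the cell, rose 1.34-fold and 1.37-fold, and the gamma-secretase subunit genes Ncstn and Aph1a also rose, Ncstn 1.29-fold and 1.27-fold and Aph1a 1.18-fold in both lines. Among 11 tested genes for receptor turnover, KO-c19 had 4 that rose and 4 that fell (median 0.059) and KO-c43 had 5 that rose and 4 that fell (median 0.037), beside the same shares. Numbl, for a relative of the Notch inhibitor Numb, rose 2.66-fold and 3.59-fold. Nedd4, a ubiquitin ligase gene, rose 1.33-fold and 1.46-fold, and Dtx3, of the Deltex family, 1.65-fold and 1.47-fold. Their relatives went apart. Of the other tested Deltex genes, Dtx2 rose in both lines while Dtx3l and Dtx4 fell in both, and Nedd4l also fell in both.

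**Figure D4:**
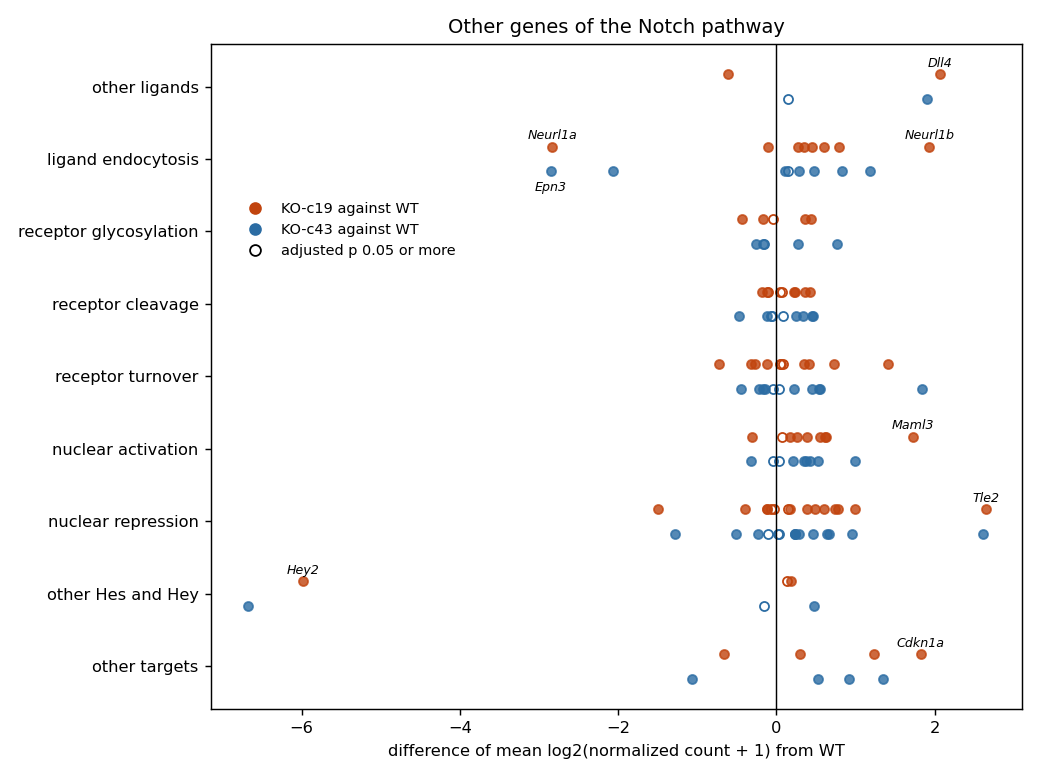
Difference of mean log2(normalized count + 1) from WT for the other tested genes of the pathway, grouped by step; KO-c19 is rust red and KO-c43 blue, filled points had an adjusted p under 0.05, and names are given for the points farthest from 0 in KO-c19 and for Epn3 in KO-c43. Most points lie within 1 of 0, with Dll4, Neurl1b, Maml3, Tle2 and Cdkn1a to the right and Hey2, Neurl1a and Epn3 to the left. Hey2 was in the fit but passed the filter on low values through the WT libraries alone.

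When the 9 members were ordered by level per kilobase of exon within each group, Hes1 and Notch2 came first everywhere. In KO-c19 they had 920 ± 57.6 and 867 ± 46.3 (SD, n = 3) with overlapping libraries, followed by Notch1 with 453 ± 38.7, Jag1 with 175 ± 3.94, Jag2 with 105 ± 4.71, Dll1 with 71.8 ± 7.04, Notch4 with 8.91 ± 1.01, Notch3 with 5.15 ± 0.81 and Hey1 with 2.00 ± 1.05. In KO-c43 Hes1 had 873 ± 8.08 and Notch2 710 ± 28.5, followed by Jag2 with 295 ± 6.81, Dll1 with 274 ± 5.38, Notch1 with 160 ± 10.1 and Jag1 with 91.1 ± 11.6. Below these stood Hey1 with 8.37 ± 1.22 and Notch4 with 6.67 ± 0.54, whose libraries overlapped, and Notch3 with 0.16 ± 0.069. In WT the order was Hes1 with 945 ± 41.6, Notch2 with 663 ± 7.18 and Jag1 with 649 ± 50.3, the last 2 overlapping, then Notch1 with 285 ± 9.27, Dll1 with 154 ± 7.74 and Jag2 with 76.8 ± 6.16. Notch4 with 5.40 ± 0.46 and Hey1 with 4.45 ± 0.69 overlapped in WT, and Notch3 came last with 1.55 ± 0.86. Jag1 was among the leading members in WT and below both other member ligands in KO-c43. Dll4, outside the member list and this order, had 819 ± 73.6 in KO-c19 and 732 ± 13.1 in KO-c43, against 195 ± 7.55 in WT. In KO-c43 its mean was thus above that of Notch2. The order was the same in each group when the longest transcript replaced the exonic length.

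The genes whose log2 values over the 9 libraries were most like those of a member were sought among 10568 tested genes with a mean of at least 100 normalized counts. For Notch3, the member with the widest range of group means, they were Zfp408, Mcpt8, Tec and Cda, with Pearson's r between 0.975 and 0.986. Mcpt8, for a mast cell protease family member, averaged 197 normalized counts in KO-c19 and 52.5 in KO-c43, against 109 in WT, the same order of groups as Notch3. For Hes1 they were Pold3, Tmem39b, Tmbim6 and Ddr1, with r between 0.91 and 0.937, all with group means lowest in KO-c43 and highest in WT. With 9 libraries in 3 groups these likenesses describe the order of the groups and little more.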

How the data were processed

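Ribosomal RNA-depleted total RNA of 9 libraries was sequenced with a strand-specific kit, per the labels' protocols. Per the submitters' processing notes, STAR, cutadapt and Partek were used with mm10. No source used here states versions, how reads were counted or which annotation was taken. Each deposited value is a signal per gene, a read count normalized by the authors. Where values came to 20 reads or fewer, 82.9% to 83.9% were within 0.1 of a whole number of reads, so whole reads were not recovered for the table and no count model was run; reads are given for the rare members only. Of 22292 gene identifiers matched to GENCODE M21 (GRCm38), 468 had the same start and 21989 the same span in the table, so the table's own coordinates are printed.

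Values were kept as scaled by the authors and transformed as log2(value + 1). The filter asked for a value of 10 or more in 3 or more libraries, which 17579 of 22469 genes passed. One limma fit (limma 3.58.1, R 4.3.3) with trended, robust variance moderation covered all 3 groups and gave 3 two-sided comparisons, adjusted by Benjamini-Hochberg over all genes; genes had a median residual SD of 0.092 (log2). The fit was run on simulated data in which few genes, none of them rare, were changed, so that run does not bear on the rare members. Exonic lengths are unions of GENCODE M21 exons, matched by gene identifier, and windows around gene starts are from RefSeq GRCm38.p6. Figures used matplotlib 3.10.9.

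The members and the gene lists were chosen with earlier results of these data known. All members were named, as were up to 3 genes of each other list with the smallest larger adjusted p against WT, every tested gene of the lists of other ligands, other Hes and Hey genes and other targets, and the 4 genes most like Hes1 and Notch3. Dtx2, Dtx3l, Dtx4 and Nedd4l were named as relatives of named genes. Alternatives were other constants, filters, scalings and empirical Bayes settings, a 2-fold threshold, a fit on only the groups compared, the replicate block and leaving out each library. Precision at low levels is limited by the number of reads.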

Additional observations from a re-analysis of the deposited data

Results flagged for a closer look

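For 7 members the direct comparison of the lines, a test of the difference between their effects against the shared WT libraries, passed the threshold (limma adjusted p under 0.05, KO-c43 against KO-c19), where 39.4% of all tested genes did. Transcripts of Notch1, Notch2 and Notch3 were lower in KO-c43 than in KO-c19, with log2 differences of −1.50, −0.29 and −4.23. The Notch4 difference of −0.41 did not pass (limma adjusted p = 0.0561). Jag1 was lower by −0.95. Jag2, Dll1 and Hey1 were higher in KO-c43 than in KO-c19, by 1.49, 1.93 and 2.02. The Notch3 and Hey1 values rest on few reads per library, and the size for Notch3 was −2.88 with 5 added before the logarithm. Notch3 also passed the filter on low values only with the KO-c19 libraries, so its difference between the lines is not independent of that filter. What sets the lines apart was not tested, and each line is represented by cultures of 1 line.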

How the results depend on the processing

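Apart from the 2-fold threshold, and over the rest of the 20 alternatives, the calls of Notch1, Notch3, Jag1, Jag2 and Dll1 against WT held their direction and their side of the threshold in both lines wherever they were tested, as did Notch2, Notch4 and Hey1 in KO-c19; Notch3 and Hey1 were not tested with a filter of at least 50, and Notch3 in KO-c43 against WT was not tested in the fit on only the groups compared, where it did not pass the filter. Of the counts of members, the number rising in both lines, 2 as reported, was 1 without a filter, under TMM scaling and with the replicate block, each through the Notch2 call in KO-c43, and 0 with at least a 2-fold change, which neither Notch2 nor Jag2 reached in KO-c19. With at least a 2-fold change, 1 member rose and 3 fell in KO-c19, 1 rose and 2 fell in KO-c43, and 3 were higher and 2 lower in KO-c43 than in KO-c19, beside 9.06% and 6.41%, 8.28% and 6.18%, and 2.55% and 3.45% of tested genes. Leaving out 1 library gave 2 to 4 members rising in KO-c43 and 1 to 2 rising in both lines. Same-numbered replicates of different groups did not deviate together (correlations of −0.0914 to 0.0754), so the numbers were not treated as pairs. The replicate block changed 2 calls, of Notch2 and Hes1 in KO-c43, for which it gave limma adjusted p = 0.0553 and 0.0468, and no other call. Hes1 in KO-c19, not called in any alternative, had a difference of 0.058 under total scaling, 0.040 under quantile scaling, and −0.088 to 0.00068 when 1 library was left out. Notch4 passed in KO-c43 without the trend and robust settings (limma adjusted p = 0.0341), and between the lines there (0.0176), with 5 added before the logarithm (0.0494) and under total scaling (0.0319). Of 27 levels per kilobase, 19 moved by more than 1 SD with the longest transcript as length, with the order within each group as before. At 1 to 48 reads per library, Notch3 and Hey1 are limited by depth. The Notch3 calls in KO-c19 and between the lines are also not independent of the filter on low values.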
